A study of Arabidopsis thaliana with 39 samples.

Results

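The chloroplast genome of Arabidopsis thaliana contributed a small and highly variable part of the molecules counted in single seeds. All table rows whose identifier begins with ATCG, the prefix of chloroplast genes, were collected, which gave 133 rows of 37184 in the time course and the dry pools and 133 rows of 37336 in the dog1 experiment. Of the 133 rows, 14 held no UMI (unique molecular identifier, the tag that marks 1 captured molecule) in any seed or pool. A count was present for 118 rows in the time course, for 100 in the dog1 experiment and for 82 in the dry pools. Within these limits the rows are called chloroplast rows here, because an oligo(dT) primer can start on RNA or on DNA, and the source of these UMIs was not tested.

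After-ripened seeds, which had lost their primary dormancy, were sown on wet paper and kept at 30 °C in the dark, a treatment that induces secondary dormancy. In the time course, Col-0 wild-type seeds were taken after 1 h of imbibition at 22 °C, after 1 d, 3 d, 5 d and 7 d of the treatment, and after 7 d of treatment followed by 24 h of recovery in the light. A pool-split control used 7 d seeds whose extracts were mixed and divided again before the reactions. A separate dog1 experiment compared Col-0 with dog1-4, a mutant of the dormancy gene DELAY OF GERMINATION 1, at 3 d and at 7 d + 24 h. Each of these 11 groups had 3 libraries of 32 seeds, and dry untreated seeds of Col-0 and dog1-4 were measured as 3 pools per genotype. The libraries of a time point are batches of seeds from 1 seed pool, so that the tests measure the spread between batches, while the dry pools are biological replicates.

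The chloroplast genome encodes subunits of the photosystems and of other photosynthetic complexes, part of the plastid ribosome and of a plastid RNA polymerase, and a few further proteins such as a subunit of the Clp protease. Nuclear genes supply most plastid proteins, among them phage-type RNA polymerases and the sigma factors that direct the plastid-encoded polymerase to promoters. Plastids of dry seeds are undeveloped, and photosynthetic genes of both genomes are switched on when a seedling turns green. Plastid transcripts generally lack the long poly(A) tails of nuclear mRNA, and short A stretches within a template can also hold an oligo(dT) primer.

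The annotation used here pairs 6 of the 133 identifiers with a name, and the other 127 are given by identifier alone. Those described by name are ATCG00670 (clpP, the plastid-encoded subunit of the Clp protease), ATCG00660 (rpl20) and ATCG01310 (rpl2), which encode proteins of the plastid ribosome, ATCG00530 (cemA, a chloroplast envelope membrane protein) and ATCG00430, annotated as photosystem II reaction center protein G. In the RefSeq chloroplast sequence of TAIR10.1, clpP lies at Pltd:69910-71882 on the minus strand, rpl20 at Pltd:68512-68865 (minus) and cemA at Pltd:60741-61430 (plus). The longest run of A on the sense strand is shown in capitals with its surroundings for these 3 genes, since the primers anneal to A. These are matches of letters and not measured priming sites.
clpP (Pltd:70379-70441, outside the coding exons): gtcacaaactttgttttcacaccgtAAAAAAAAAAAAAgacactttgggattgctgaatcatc
rpl20 (Pltd:68512-68546, in the coding exon): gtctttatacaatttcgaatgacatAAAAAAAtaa
cemA (Pltd:60741-60776, in the coding exon): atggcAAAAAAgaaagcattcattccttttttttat

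The longest run had 13 bases in clpP, 7 in rpl20 and 6 in cemA. Per kilobase of gene, the mean level over the groups of the time course was 183 CPM for rpl20, 163 for clpP and 88.2 for cemA, where CPM (counts per 1000000) is the number of UMIs relative to nuclear protein-coding UMIs after scaling between libraries. The clpP length includes its introns, and per kilobase of coding sequence its level was 545 CPM. Without division by length the levels were 322 CPM for clpP, 64.6 for rpl20 and 60.8 for cemA. The order of the genes thus depends on the length used. The rpl2 gene has 2 copies, at Pltd:84337-85843 and Pltd:152806-154312, and reads that fit both places were discarded by the unique-mapping limit. Of the 131 chloroplast features in the annotation, 33 occur more than once, all 7 rRNA features among them, so the counts of repeated genes are a lower limit.

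The depth of a library was 845573 to 3221274 UMIs over all rows in the time course, 1788179 to 5117347 in the dog1 experiment and 842731 to 3400324 in the dry pools. After removal of seeds under 5000 UMIs on nuclear protein-coding genes, 665 of 672 and 382 of 384 seeds remained. Chloroplast rows held 778518 UMIs in the time course, 243874 in the dog1 experiment and 11740 in the dry pools. The exact 95% binomial interval of a library share reached at most 0.0496 percentage points to either side, which covers counting error only. Transcripts of 10 seed storage and oil body genes were abundant in every group, from a mean of 10561 CPM in dog1-4 at 7 d + 24 h to 213770 CPM in Col-0 at 3 d. The third dog1-4 library at 3 d stood apart from the others in 8 seeds, and results that rest on it are given with and without it. DOG1 (AT5G45830) checked the genotypes. Its level was 57.2 to 138 CPM in Col-0 and 6.88 to 11.7 CPM in dog1-4 at 3 d, 13.1 to 19.6 against 0.919 to 2.39 CPM at 7 d + 24 h, and 68.5 to 79.7 against 3.59 to 7.79 CPM in the dry pools.

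The chloroplast share of all listed UMIs was high after 1 h, low after 1 d, highest after 3 d and 5 d, and low again after 7 d and in recovery. At 1 h the 3 libraries stood at 3.09, 4.92 and 1.47%, and at 1 d at 1.09, 0.765 and 0.938%. At 3 d they stood at 5.73, 4.99 and 3.88%, and at 5 d at 6.01, 6.55 and 3.68%. The 3 d and 5 d libraries overlapped and lay above all libraries of 1 d, 7 d and recovery. The shares at 7 d were 0.804, 0.789 and 0.982%, and at 7 d + 24 h 0.837, 0.711 and 0.662%. Mixing of 7 d extracts gave 2.43, 2.68 and 2.44% in the pool-split libraries, which were above each 7 d library and close to each other.

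The mean share fell from 3.16 ± 1.73% (SD, n = 3) at 1 h to 0.930 ± 0.161% at 1 d without overlap of the libraries. It was 5.24-fold higher at 3 d (4.87 ± 0.934%), 5.41 ± 1.53% at 5 d, 0.858 ± 0.107% at 7 d and 0.737 ± 0.0904% in recovery. The pool-split mean of 2.52 ± 0.138% was 2.93-fold that of single 7 d seeds. For the steps from 1 h to 1 d, from 1 d to 3 d and from 5 d to 7 d, and for the pool-split against 7 d, the two-sided exact permutation test over libraries gave p = 0.1, the smallest that 3 against 3 libraries allow, with an adjusted value of 0.22 over 11 comparisons. By this test no share comparison could therefore pass 0.05. The steps from 3 d to 5 d (exact permutation p = 0.6) and from 7 d to recovery (p = 0.3) had overlapping libraries.

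**Figure D1:**
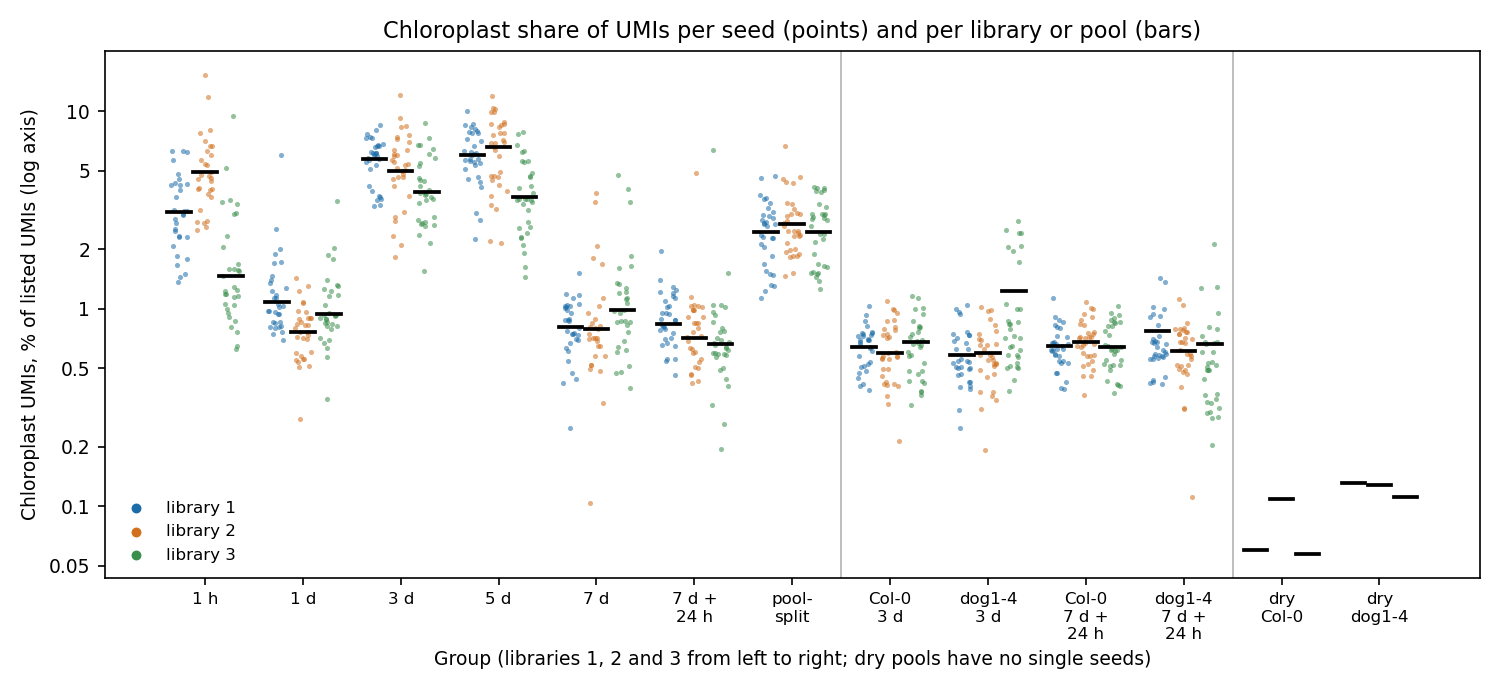
Share of chloroplast UMIs among all listed UMIs (percent, log axis) in every kept seed of the 11 single-seed groups, with the library shares and the 6 dry pools beside them. Seeds of 1 h, 3 d, 5 d and the pool-split lie highest, with medians of 3.03, 5.31, 5.58 and 2.62%, and the other groups have medians under 1%.

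Single seeds spread widely around these values. The lowest, median and highest seed had 0.627, 3.03 and 15.3% at 1 h, 0.276, 0.896 and 6.01% at 1 d, and 1.56, 5.31 and 12.1% at 3 d. They had 1.44, 5.58 and 11.96% at 5 d, 0.104, 0.846 and 4.72% at 7 d, and 0.194, 0.763 and 6.34% in recovery. Every kept seed carried chloroplast UMIs, with at least 22 of them. The coefficient of variation over the seeds of a library was 25.1% to 120% in the time course and 36.1 to 39.2% over the pool-split aliquots, which were portions of 1 mixture. Counting alone would give 2.33 to 8.31%. The spread over aliquots of 1 mixture was thus of the size seen among single seeds at 3 d (25.1 to 40.2%) and at 5 d (29.3 to 43.1%).

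The chloroplast share moved with the share of UMIs that fell outside annotated genes. Over the seeds of each time course library, Spearman's rho between them was 0.663 to 0.949 (30 to 32 seeds per library, which share library and depth). In the time course, all UMIs outside nuclear protein-coding genes made up 53.4% at 1 h, 21.3% at 1 d, 67.6% at 3 d, 71.9% at 5 d, 28.5% at 7 d, 22.4% in recovery and 53.4% in the pool-split, on average over libraries and with UMIs outside genes included. The same 4 groups, 1 h, 3 d, 5 d and the pool-split, were high in both measures. Within these UMIs, the chloroplast part was 2.22 to 3.52% between group means, a 1.59-fold range, whereas the share of listed UMIs had a 7.35-fold range. The part of these other UMIs in the differences between time points was not tested. The study treated all reads on organellar genomes as unspecific. It proposed that unspecific reads come from DNA templates when reverse transcription is inefficient. By that definition chloroplast rows are unspecific whatever their correlation. The study also left out genes whose counts followed the intergenic signal over seeds with a Pearson correlation above 0.3. With the deposited UMIs outside annotated genes as the measure, 7 of the 77 chloroplast rows that averaged 1 UMI per seed or more lay at or under this limit (9 of 48 in the dog1 experiment). With all UMIs outside nuclear protein-coding genes, which hold the chloroplast rows themselves, 7 and 4 did.

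A small number of rows carried most of the chloroplast UMIs. ATCG01130 led in 20 of the 21 time course libraries with a mean of 23.2% of chloroplast UMIs, and ATCG00740 followed with 13.3%. The 10 highest rows of a library held 58.1 to 69.3%, while 96 to 111 rows were detected. These are shares of UMIs and were not divided by gene length. ATCG01130 had 8810, 14424 and 5452 CPM at 1 h and 2674, 1918 and 2329 CPM at 1 d. It then had 13730, 12624 and 7818 CPM at 3 d, 15640, 19567 and 6944 CPM at 5 d and 1926, 2093 and 1973 CPM at 7 d. Its part in the chloroplast UMIs was 17.9 to 20.8% at 3 d against 22.6 to 24.1% at 1 d (exact permutation p = 0.1, adjusted 0.367, n = 3 each), so its level changed slightly less than that of the other rows combined.

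**Figure D2:**
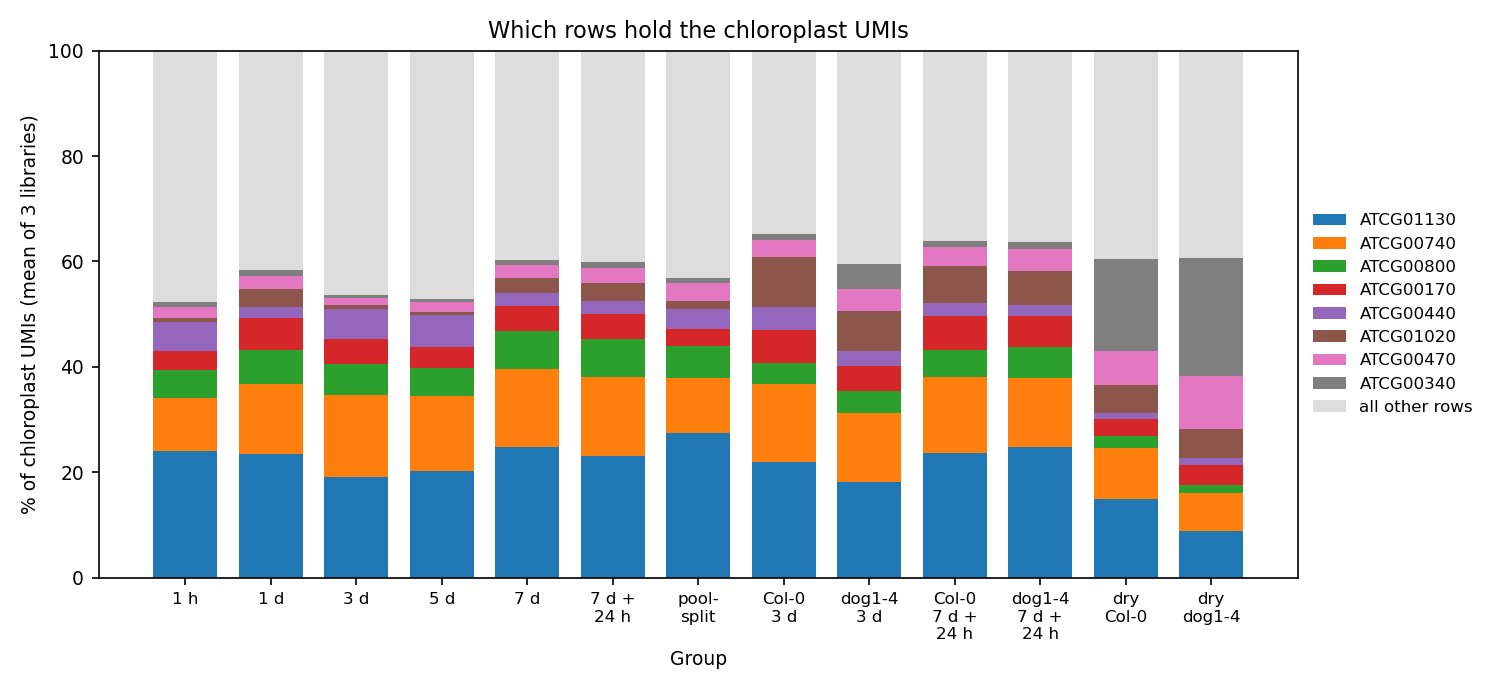
Stacked bars of the percent of chloroplast UMIs on 8 rows and on all other rows in each group, as the mean of 3 libraries or pools. ATCG01130 takes 23.2% on average in the time course, and ATCG00340 is near 1% in most single-seed groups but 17.5% and 22.5% in the dry pools, which were prepared and counted in another way.

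The 77 rows averaging 1 UMI per kept seed or more were tested with edgeR's quasi-likelihood test on library sums among 9165 rows of all genomes. A call required an adjusted p below 0.05 and a change of more than 1 on the log2 scale. From 1 h to 1 d, 76 of the 77 rows fell and none rose, against 19.2% of all tested rows that fell and 14.9% that rose. From 1 d to 3 d, 72 rose and none fell (18.1% of all rows rose and 7.93% fell). From 5 d to 7 d, 74 fell and none rose (18.9% of all rows fell and 1.7% rose). The median log2 fold changes of the chloroplast rows were -2.26, 2.37 and -2.98, and those of all rows were 0.01, 0.05 and -0.01. For 72 of the 77 rows, all 3 calls were present together. The first and the second step share the 1 d libraries, so these calls are not independent. The share of all rows with the 3 calls together is not given here, and it cannot exceed the 18.1% that rose from 1 d to 3 d. The test is relative to nuclear protein-coding UMIs. Changes in chloroplast RNA per cell, in the number of chloroplasts or cells and in unspecific priming cannot be told apart in whole seeds.

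**Figure D3:**
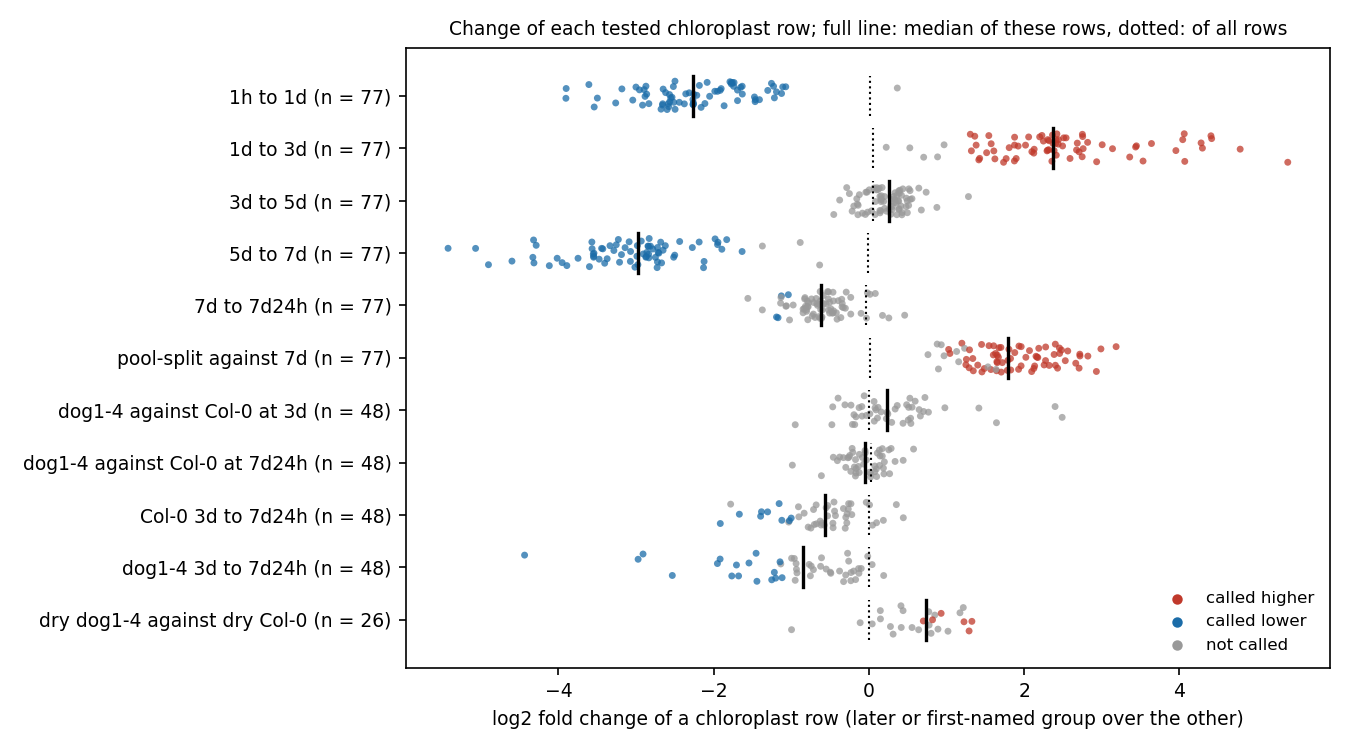
Log2 fold change of each tested chloroplast row in each comparison, 1 point per row, with called rows in colour, a full line at the median of these rows and a dotted line at that of all tested rows. The medians of the chloroplast rows are -2.26 (1 h to 1 d), 2.37 (1 d to 3 d), 0.26 (3 d to 5 d) and -2.98 (5 d to 7 d).

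Among the named rows, the protease gene clpP (ATCG00670) had 395, 553 and 233 CPM at 1 h and 185, 144 and 152 CPM at 1 d. It had 724, 654 and 399 CPM at 3 d, 642, 670 and 410 CPM at 5 d and 153, 114 and 126 CPM at 7 d. All 3 d and 5 d libraries were above all 1 d and 7 d libraries. Its log2 fold changes were -1.30 ± 0.26 (SE, adjusted p = 0.000189) from 1 h to 1 d, 1.88 ± 0.26 (adjusted p = 2.73e-06) from 1 d to 3 d and -2.12 ± 0.27 (adjusted p = 9.74e-07) from 5 d to 7 d by edgeR.

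The plastid ribosomal protein gene rpl20 (ATCG00660) was at 98.5, 151 and 83.6 CPM at 1 h and at 41.0, 32.5 and 27.1 CPM at 1 d. Its level was 117, 63.4 and 84.7 CPM at 3 d, 129, 97.7 and 105 CPM at 5 d and 26.2, 21.3 and 26.6 CPM at 7 d. As for clpP, the 3 d and 5 d libraries did not overlap with those of 1 d and 7 d. The row fell by 1.74 ± 0.25 (log2, edgeR adjusted p = 3.82e-06) from 1 h to 1 d, rose by 1.38 ± 0.25 (adjusted p = 8.97e-05) from 1 d to 3 d and fell by 2.13 ± 0.27 (adjusted p = 8.12e-07) from 5 d to 7 d. The rise from 1 d to 3 d was no longer called with other row filters, at 0.66 with filterByExpr and 0.54 with no filter. The rows of cemA (ATCG00530: -2.08, 1.77 and -2.87) and of ATCG00430 (-2.18, 2.30 and -3.07) were called in each of these steps as well. For rpl2 (ATCG01310), no library exceeded 13.6 CPM and the dog1 experiment had no UMI.

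The rows did not all change to the same degree. Between the highest and the lowest mean of the 6 time points, the level differed by a median of 13.0-fold, from 2.02-fold for ATCG01020 to 65.3-fold for ATCG00620. ATCG00620 had 491, 1029 and 170 CPM at 1 h and 25.5, 42.0 and 46.2 CPM at 1 d. It reached 1992, 1384 and 1420 CPM at 3 d and was at 13.7, 15.2 and 72.3 CPM at 7 d. ATCG00020 had the same log2 fold change from 1 h to 1 d, -3.90 ± 0.29 (edgeR adjusted p = 2.57e-10), and at 1 h its highest level of the time course, with 191, 380 and 289 CPM against 135, 107 and 74.1 CPM at 3 d. In all, 49 rows had their highest mean at 5 d, 14 at 3 d and 14 at 1 h, and 70 had their lowest mean in recovery and 7 at 7 d. These are ranks of means, without the matching shares of all rows. No chloroplast row was called from 3 d to 5 d, and 4 were called from 7 d to recovery.

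ATCG01020 stood apart from this pattern. Its libraries had 253, 281 and 235 CPM at 1 h, 379, 295 and 319 CPM at 1 d, 432, 370 and 360 CPM at 3 d and 213, 228 and 236 CPM at 7 d. None of its steps in the time course was called. Its log2 fold change from 1 d to 3 d was 0.22 ± 0.18 (edgeR adjusted p = 0.319) and that from 5 d to 7 d was -0.63 ± 0.18 (adjusted p = 0.00701, below the fold limit), and both signs turned when rows with low counts were tested as well. Over the seeds of the time course, its count had the lowest correlation with UMIs outside nuclear protein-coding genes among the tested rows. There r was 0.0274, against a median of 0.564. This did not hold in the dog1 experiment, where its r was 0.675, against a median of 0.511 over the tested rows.

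**Figure D4:**
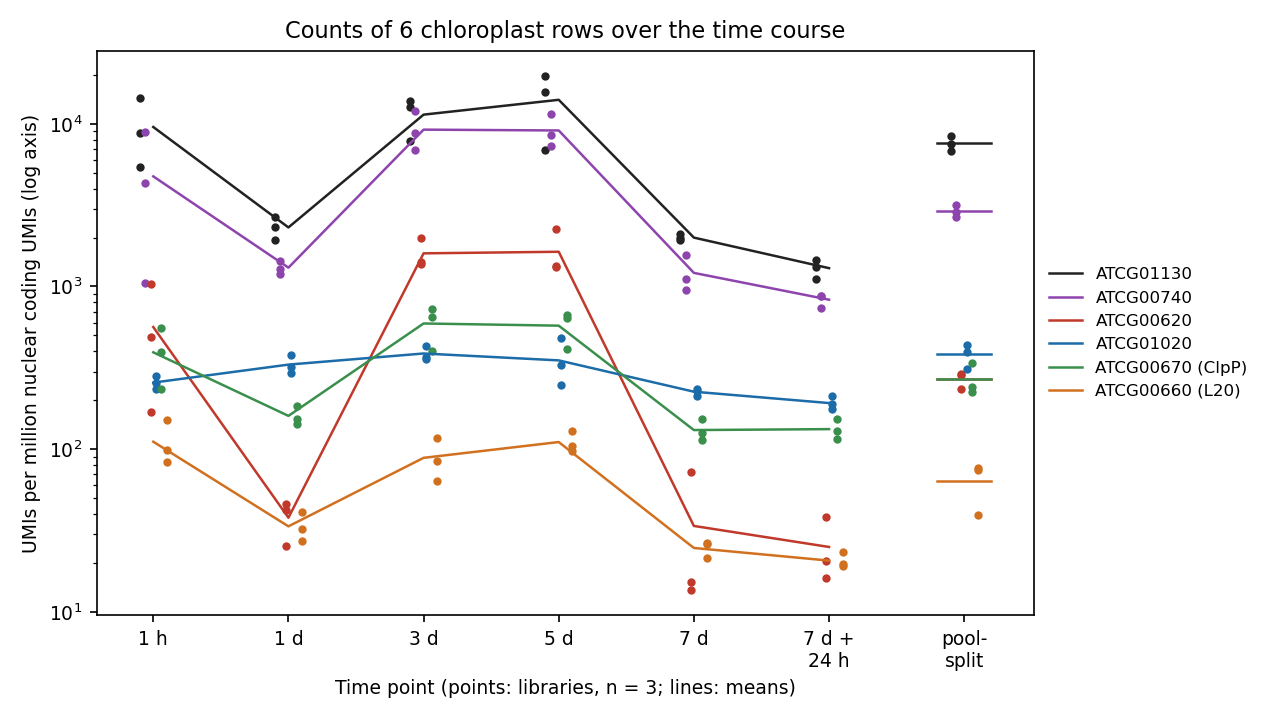
Level (CPM, log axis) of 6 chloroplast rows over the time points and the pool-split control, with 1 point per library and a line through the means. clpP and rpl20 follow the common course, ATCG00620 spans 65.3-fold between time point means and ATCG01020 spans 2.02-fold.

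From 3 d to 5 d no chloroplast row was called in either direction by edgeR or DESeq2, and by edgeR 0.0218% of all rows rose and 0.0436% fell. At an unadjusted edgeR p under 0.05 there were 4 of the 77 chloroplast rows, and the share of all rows at that limit is not given here. The median of the chloroplast rows was 0.26. From 7 d to recovery, 4 of the 77 rows fell and none rose (9.26% of all rows fell and 9.94% rose), and the median was -0.62. The 4 rows were ATCG00300, ATCG00310, ATCG00390 and ATCG01110, of which ATCG00310 fell from 39.5 to 16.9 CPM on average (log2 fold change -1.17 ± 0.30, edgeR adjusted p = 0.00259). This count rests on single libraries: it was 1 without the second or the third 7 d library, and 2 and 0 without the second and the third recovery library. clpP had 154, 115 and 129 CPM in recovery, within the range of the 7 d libraries apart from the highest (log2 fold change 0.02 ± 0.26, adjusted p = 0.969).

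The pool-split libraries, made from the same kind of seeds as the 7 d libraries, had 67 of 77 chloroplast rows higher and none lower (7.51% of all rows were higher and 0.36% lower), and their median was 1.79 on the log2 scale. clpP had 242, 337 and 225 CPM in the pool-split, above the 114 to 153 CPM of the 7 d libraries (1.03 ± 0.26, edgeR adjusted p = 0.00978). The largest change was that of ATCG01040, from a mean of 80.2 CPM at 7 d to 738 CPM (3.18 ± 0.51, adjusted p = 0.000255). Of the 72 rows with all 3 calls over time, 65 were also higher in the pool-split. These comparisons share the 7 d libraries.

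Rows of the mitochondrial genome, the other organelle, had smaller medians than the chloroplast rows in some comparisons and larger ones in others. Of 15 tested mitochondrial rows, 9 fell from 1 h to 1 d (median log2 fold change -1.47), 11 rose from 1 d to 3 d (1.49), 6 fell from 5 d to 7 d (-0.48) and 5 were higher in the pool-split (0.63). From 7 d to recovery 9 of the 15 fell, with a median of -1.24 against -0.62 for the chloroplast rows. In the dog1 experiment, with the main scaling, the medians of 17 mitochondrial rows from 3 d to 7 d + 24 h were -0.82 in Col-0 and -1.54 in dog1-4, against -0.56 and -0.85 for the chloroplast rows. The log2 ratio of chloroplast to mitochondrial UMIs was 3.51 ± 0.478 (SD, n = 3) at 1 h, 2.12 ± 0.291 at 1 d, 3.83 ± 0.447 at 3 d, 4.15 ± 0.522 at 5 d, 1.97 ± 0.157 at 7 d, 1.63 ± 0.211 in recovery and 2.93 ± 0.0686 in the pool-split. Its libraries did not overlap in any of these comparisons except 3 d against 5 d, each with an exact permutation p = 0.1 and an adjusted value of 0.157. From 7 d to recovery the libraries nearly touched, with 1.8563 in the lowest 7 d library and 1.8559 in the highest recovery library.

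Only some nuclear genes of plastid gene expression had enough UMIs to be tested in the time course. The 2 genes for phage-type plastid RNA polymerases were tested in each comparison and never called, with summed levels between 17.7 and 30.4 CPM in dry Col-0 pools and 37.1 and 116 CPM over the 6 time points. Of 6 sigma factor genes, 1 had enough UMIs in the time course. It rose from 1 d to 3 d by a log2 fold change of 2.29 and fell by 1.93 from 5 d to 7 d. Of 4 tested genes for plastid RNA processing, 1 fell from 1 h to 1 d and 1 rose from 1 d to 3 d. Of all tested rows, 19.2% fell from 1 h to 1 d, 18.1% rose from 1 d to 3 d and 18.9% fell from 5 d to 7 d. These lists are too short to be set against those shares. The 12 nuclear photosynthesis genes that mark green tissue had a summed level of 22.3 to 846 CPM over the time course libraries, and 1 of them was tested. The 1 h libraries held the highest value but ranged from 57.0 to 846 CPM. The sum was 119 to 211 CPM at 3 d and 178 to 220 CPM at 5 d.

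In the dog1 experiment the chloroplast share was low in all groups, and the genotypes overlapped at both time points. Col-0 libraries had 0.643, 0.599 and 0.675% at 3 d and 0.649, 0.677 and 0.641% at 7 d + 24 h. Those of dog1-4 had 0.581, 0.596 and 1.22% at 3 d and 0.771, 0.608 and 0.663% at 7 d + 24 h. The means of Col-0 and dog1-4 were 0.639 ± 0.0384% and 0.800 ± 0.366% at 3 d (two-sided exact permutation p = 1, n = 3) and 0.656 ± 0.0186% and 0.680 ± 0.0829% at 7 d + 24 h (exact permutation p = 0.8). Without the third dog1-4 library the 3 d mean of the mutant was 0.588%, and the difference turned from 0.161 to -0.0507 percentage points. At 7 d + 24 h, the 3 seeds with the most chloroplast UMIs held 36.3% and 43.1% of those of the first and the third dog1-4 library. Without these 3 seeds in each library, the shares of dog1-4 were 0.625, 0.615 and 0.457% and those of Col-0 0.615, 0.641 and 0.620%, so that the third dog1-4 library moved from 0.663% to below every Col-0 library.

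Col-0 at 3 d was measured in both experiments. Its share was 7.62-fold higher in the time course, where UMIs outside nuclear protein-coding genes were 5.17-fold more frequent. In recovery the shares of the experiments differed by 1.12-fold. These experiments were separate preparations, and the seeds and the preparation cannot be told apart. In the dog1 experiment rho between the chloroplast share and the share outside genes was lower, from -0.313 in the third dog1-4 library at 3 d to 0.806.

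None of the 48 tested chloroplast rows was called between dog1-4 and Col-0 by edgeR or DESeq2. Of all tested rows, 0.693% were called higher and 0.329% lower at 3 d, and 4.13% and 6.15% at 7 d + 24 h. For the interaction of genotype and time point, 0 chloroplast rows were called, against 0.8% of all rows higher and 3.5% lower. At an unadjusted edgeR p under 0.05, there were 9 chloroplast rows at 3 d, 5 at 7 d + 24 h and 3 for the interaction. The share of all rows at this looser limit is not given here, so these counts have no background. At 3 d, 4 and 2 rows were called when the first or the second dog1-4 library was left out, and 0 without the third. At 7 d + 24 h, 1 row was called without the first or the third Col-0 library or without the first dog1-4 library, and the interaction had 1 call without the second dog1-4 library of 7 d + 24 h.

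ATCG01090 had the smallest p between the genotypes at both time points. At 3 d it had 138, 129 and 117 CPM in Col-0 and 80.9, 61.9 and 56.9 CPM in dog1-4, and at 7 d + 24 h 30.3, 42.1 and 29.0 CPM in Col-0 and 26.3, 12.4 and 13.6 CPM in dog1-4. The genotypes did not overlap at either time point. The log2 fold changes were -0.95 ± 0.26 (edgeR adjusted p = 0.0825) at 3 d and -0.99 ± 0.27 (adjusted p = 0.0155) at 7 d + 24 h, the latter under the fold limit and therefore not called. clpP had 165, 109 and 111 CPM in Col-0 and 147, 134 and 136 CPM in dog1-4 at 3 d, with overlap.

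From 3 d to 7 d + 24 h, 9 of 48 rows fell in Col-0 and none rose (8.61% of all rows fell and 13.3% rose), and 17 fell in dog1-4 and none rose (16.5% and 17.4% of all rows). Median log2 fold changes were -0.56 and -0.85. With all UMIs as the library size and no further scaling, the count for Col-0 was 2 lower and 1 higher and its median turned to 0.05, with the median of all rows at 0.62. Without the third dog1-4 library of 3 d, 8 rows fell in dog1-4. Set against 48 rows, this is close to the 16.5% of all rows that fell with that library included. The share of all rows without it is not given here. ATCG01090 fell in Col-0 by 1.91 ± 0.26 (log2, edgeR adjusted p = 0.000158) and in dog1-4 by 1.95 ± 0.27 (adjusted p = 6.87e-05). ATCG01020, the row with the narrowest range in the time course, had 865, 765 and 778 CPM in Col-0 at 3 d and 400, 422 and 382 CPM at 7 d + 24 h and fell by 1.00 ± 0.19 (adjusted p = 0.00138). Its change in dog1-4, -0.96 ± 0.19 (adjusted p = 0.00103), was under the fold limit.

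The third dog1-4 library at 3 d differed from every other library in a few seeds. In 8 of its 32 seeds, the 12 nuclear photosynthesis genes held 1.97 to 6.76% of UMIs. In the other 24 seeds they held at most 0.0428%, and no seed of the other 32 single-seed libraries exceeded 0.214%. The 8 seeds were numbers 9 to 16, an unbroken run in the order of the deposited counts. Whether they differed in handling or in biology was not tested. The same 8 seeds had the highest chloroplast shares of the library, 1.72 to 2.79% with a median of 2.25%, and the other 24 had 0.382 to 1.06% with a median of 0.644%. The summed level of the 12 genes was 10974 CPM in this library and 50.6 CPM in the lowest of the other dog1-4 libraries at 3 d.

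The chloroplast rows of these 8 seeds had another composition. ATCG00340 made up 13.0 to 18.7% of their chloroplast UMIs and 0 to 3.02% in the other 24 seeds, and over the library it had 1387 CPM against 104 and 111 CPM in the other dog1-4 libraries. ATCG01130 made up 2.89 to 8.43% in the 8 seeds and 15.4 to 27.4% in the others. As a share of all listed UMIs, ATCG01130 overlapped between them, with 0.0805 to 0.148% in the 8 seeds and 0.0709 to 0.248% in the others. ATCG00020 was at 357 CPM in this library against 22.6 and 27.5 CPM in the others, but its part in the chloroplast UMIs, 3.10 to 4.30% in the 8 seeds, lay inside the range of the other 24 (0 to 6.88%). The fall of ATCG00340 in dog1-4 from 3 d to 7 d + 24 h (log2 fold change -2.97 ± 0.79, edgeR adjusted p = 0.00577) became -0.70 without this library. The share of UMIs outside genes was 6.28 to 9.55% in the 8 seeds and 8.18 to 14.3% in the other 24, with overlap. For all UMIs outside nuclear protein-coding genes, the whole library stood at 13.0%, against 13.0 and 13.7% in the other dog1-4 libraries at 3 d. The part of the nuclear photosynthesis genes' seeds in the chloroplast values of other comparisons was not tested beyond leaving this library out.

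**Figure D5:**
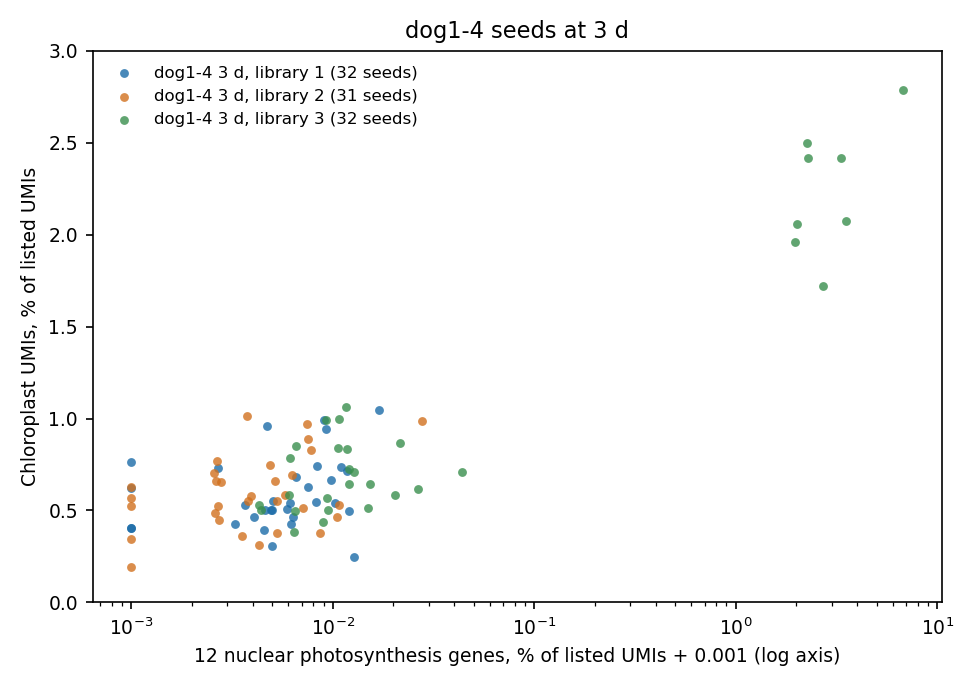
Chloroplast share against the share of 12 nuclear photosynthesis genes (both in percent of listed UMIs) for each kept seed of the 3 dog1-4 libraries at 3 d, with 0.001 added on the log axis of the nuclear genes. The 8 seeds of the third library with 1.97 to 6.76% on the nuclear genes have chloroplast shares of 1.72 to 2.79%, and the other seeds of that library stay at or below 1.06%.

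The lowest chloroplast shares were counted in the dry pools, whose preparation differed from that of single seeds. Dry Col-0 pools had 0.0597, 0.108 and 0.0576% and dry dog1-4 pools 0.130, 0.127 and 0.111%, without overlap. Means were 0.0754 ± 0.0286% and 0.123 ± 0.0104% (n = 3), a 1.63-fold higher value in dog1-4 (two-sided exact permutation p = 0.1, the smallest possible, adjusted 0.22). RNA of these pools was purified and treated with DNase and counted with another tool, so the level cannot be set against that of single seeds. The log2 ratio of chloroplast to mitochondrial UMIs was below 0 in the pools, at -1.25 ± 0.153 in Col-0 and -0.73 ± 0.287 in dog1-4, without overlap (exact permutation p = 0.1, adjusted 0.157).

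ATCG00340 led in 5 of the 6 dry pools, with a mean of 17.5% of chloroplast UMIs in Col-0 and 22.5% in dog1-4. ATCG01130, the leading row of single seeds, held 14.8% and 8.80%. In this contrast with single seeds, the state of the seeds and the preparation cannot be told apart. Between the genotypes, 6 of 26 tested rows were higher in dog1-4 and none lower (4.77% of all rows were higher and 5.18% lower, at an adjusted p under 0.05 with no fold limit), and the median log2 fold change was 0.74. ATCG00470 had 41.2, 74.7 and 40.2 CPM in Col-0 and 101, 129 and 121 CPM in dog1-4 (1.23 ± 0.21, edgeR adjusted p = 0.000307). clpP had 25.8, 26.6 and 17.7 CPM in Col-0 and 36.8, 43.9 and 41.0 CPM in dog1-4, also without overlap (0.82 ± 0.21, adjusted p = 0.0152). ATCG00340 had 123, 224 and 86.7 CPM in Col-0 and 238, 376 and 192 CPM in dog1-4, with overlap (0.93 ± 0.26, adjusted p = 0.0241).

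The count of 6 depends on single pools and on the tool. It was 3 without the first or the third Col-0 pool or without the second dog1-4 pool, 10 without the second Col-0 pool and 2 with DESeq2. The summed level of the 12 nuclear photosynthesis genes was 21.5 to 41.8 CPM in dry Col-0 and 68.1 to 108 CPM in dry dog1-4, with 2 and 1 of the 12 genes at 0 in all pools. Of these genes only AT1G67090, a gene for the small subunit of Rubisco, was tested. It had 18.4, 12.7 and 25.7 CPM in Col-0 and 90.4, 57.1 and 68.9 CPM in dog1-4, without overlap, and was higher in dog1-4 (log2 fold change 1.87 ± 0.24, edgeR adjusted p = 1.57e-05). The other 11 genes summed to 10.3, 8.86 and 16.1 CPM in Col-0 and 17.9, 11.1 and 8.20 CPM in dog1-4, with overlap. The part of these genes in the difference between the chloroplast rows was not tested.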

How the data were processed

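The authors mapped 3′ reads with STAR (2.7.8a, uniquely mapping reads only) to TAIR10 with the Araport11 annotation and deposited UMI counts per gene and seed made by BRB-seqTools from sense reads. In the dry pools the authors removed duplicate UMIs with UMI-tools (1.1.0) and counted reads with HTSeq (0.11.3). Deposited counts were used as given. UMIs outside genes or ambiguous between genes made up 42.5% and 0.127% of all UMIs in the time course, 9.60% and 0.264% in the dog1 experiment and 3.19% and 0.0931% in the dry pools. They stayed out of library sizes and tests.

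Seeds under 5000 nuclear protein-coding UMIs were removed, and the others were kept and summed per library. Rows averaging 1 UMI per kept seed or more (filterByExpr in the dry pools) were tested with edgeR (4.0.16, R 4.3.3), with library sizes and TMM factors from nuclear protein-coding genes and Benjamini-Hochberg adjustment over all rows. Each experiment was 1 fit over its groups. Library shares were compared by exact permutation tests (scipy 1.17.1) and adjusted over 11 comparisons. DESeq2 (1.42.0), other scalings, row filters, a seed minimum of 10000 UMIs, a replicate block and the removal of each library were tried.

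Members, gene lists and tests were chosen with earlier results of these data known. The rule for naming was the 12 rows with the highest mean percent of chloroplast UMIs, up to 3 called rows per comparison and direction with the largest change and no overlap, and certain genes by symbol. The last part could not be applied, since the sources used here name 6 of the 133 identifiers (of which 1 is not reported here), through notes on nuclear genes in the RefSeq annotation, and counts by functional group and a comparison with sequence over all rows were left out for the same reason. Rows without a name were printed sparingly, so not every row under the rule is named. ATCG00340 in the dog1 experiment and ATCG01020 were chosen after their values were seen. Chloroplast sequences are from RefSeq (TAIR10.1). The dry pools were called as the study did, without a fold limit.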

Additional observations from a re-analysis of the deposited data

How the results depend on the processing

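The large steps kept their direction under every alternative tried: 59 to 82 rows lower from 1 h to 1 d, 69 to 78 higher from 1 d to 3 d, 71 to 93 lower from 5 d to 7 d and 48 to 75 higher in the pool-split, and the step from 3 d to 5 d had 0 calls throughout. The number of chloroplast rows tested differed between settings, with 77 in the main analysis, 96 with filterByExpr and 118 with no filter. Without TMM scaling the median of all rows shifted by up to 0.62 (log2, Col-0 from 3 d to 7 d + 24 h), and without a row filter by up to -1.31 (5 d to 7 d). Relative to all rows, the chloroplast rows stood at -2.97 from 5 d to 7 d in the main analysis and at -0.76 without the filter. Leaving out the filter adds many rows near 0 counts. From 1 h to 1 d these values were -2.27 and -0.89, from 1 d to 3 d 2.32 and 0.43, and in the pool-split 1.78 and 0.63. Without the filter, 70 of 118 chloroplast rows rose from 1 d to 3 d, against 33.8% of all rows. Smaller comparisons depended on the setting, and the cause was not tested. From 7 d to recovery (4 rows called), TMM over all rows gave 1, all UMIs without TMM 0 and the removal of single libraries 0 to 7. For dog1-4 against Col-0 at 3 d (0), no row filter gave 4 and single removals 0 to 4. At 7 d + 24 h (0), filterByExpr gave 1 and removals 0 to 1. For the interaction (0), no filter gave 6 and removals 0 to 1, and its median turned from -0.24 to 0.02 without the filter. For Col-0 from 3 d to 7 d + 24 h (9), all UMIs without TMM gave 3, filterByExpr 20 and no filter 18, and removals 6 to 9. For dog1-4 over the same step (17), these gave 9, 29 and 28, and removals 7 to 23. In the dry pools (6), DESeq2 gave 2, no filter 12 and removals 3 to 10.

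Replicate numbers were not used to pair the libraries in the main analysis. Of the same-numbered pairs, 20 of 63 in the time course, 10 of 18 in the dog1 experiment and 0 of 3 in the dry pools deviated together with a correlation over 0.1. The mean correlation of same-numbered pairs was 0.0615, 0.116 and -0.0672, against -0.0308, -0.0615 and 0.0337 for pairs of different numbers. Whether libraries of the same number share a batch was not tested. With the number as a replicate block, 76, 73, 0, 75 and 7 rows were called over the 5 steps of the time course, 67 in the pool-split, 0 and 1 between genotypes at 3 d and at 7 d + 24 h, 0 for the interaction, 8 and 18 from 3 d to 7 d + 24 h in Col-0 and dog1-4, and 5 in the dry pools.

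Some values reversed. ATCG01020 had log2 fold changes of -0.50 (filterByExpr) and -0.62 (no filter) against 0.22 from 1 d to 3 d, and 0.21 and 0.19 against -0.63 from 5 d to 7 d. The median of the chloroplast rows in Col-0 from 3 d to 7 d + 24 h turned from -0.56 to 0.05 with all UMIs and no TMM. ATCG01130 in the dry pools went from -0.11 to 0.0469 without TMM and ranged from -0.60 to 0.25 over single removals. The share from 3 d to 5 d went from 0.545 to -0.0470 percentage points with UMIs outside genes in the denominator, a setting chosen after seeing the data, and ranged from -0.0242 to 1.41 over removals. With the median over seeds, the genotype difference was -0.0168 at 3 d and -0.0522 at 7 d + 24 h, and removals gave -0.0507 to 0.27 and -0.0203 to 0.0612. Removals gave -0.00349 to 0.0347 for the share from 3 d to 7 d + 24 h in Col-0 and -0.229 to 0.0922 in dog1-4. For the log2 ratio of chloroplast to mitochondrial UMIs, the genotype difference at 7 d + 24 h was 0.0202 and became -0.00118 without the leading row and -0.122 with the median over seeds (removals -0.0534 to 0.109), and the step in dog1-4 was 0.0411 and became -0.0814 and -0.187 (removals -0.112 to 0.235). The part of the leading row in chloroplast UMIs changed by -1.41 to 1.01 percentage points from 1 h to 1 d and by -1.18 to 3.33 from 3 d to 5 d over removals. A correction by the labelled functional groups and a count without rRNA and tRNA rows were not run, since the identifiers could not be matched to those classes. Dry pools held 741 to 4334 chloroplast UMIs, and single seeds as few as 22, which limits rows of low counts.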
